A study of Homo sapiens with 24 samples.

Results

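The cytoplasmic ribosomal protein genes encode the proteins that assemble with ribosomal RNA into the large (RPL) and small (RPS) subunit of the ribosome. They were chosen by name: RPL or RPS followed by a number, with RPLP0, RPLP1, RPLP2 and RPSA, on the autosomes or chromosome X. Of 57820 genes in the files, 83 carried such a name. RPS10L, on chromosome 20, is annotated as a processed pseudogene in a later gene annotation and was left out, so 82 genes were described, 49 of the large and 33 of the small subunit. No measured value entered the choice.

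Expression was measured by RNA-seq in U2OS cells, an osteosarcoma line, that were wild type (WT) or carried a knockout of ID3 (KO), a gene for an inhibitor of basic helix-loop-helix transcription factors. Whether the KO cells were 1 clone or a pool is not given in the sources used here. Cells labelled AID-DIvA U2OS, which carry an inducible AsiSI restriction enzyme, were untreated or treated with the class I HDAC inhibitor mocetinostat for a day and left to recover without it, and cells labelled U2OS were untreated or treated. The labels of the latter name no stage, and they were taken as the samples before recovery, since the study describes both stages and only the AID-DIvA titles name a recovery. The library names of the samples labelled U2OS also carry the word DivA. There were 3 replicate libraries in each of 8 groups, 24 in all. In the AID-DIvA samples the titles and the field that gives the treatment name opposite states. Groups were taken from the titles, so each direction in AID-DIvA cells rests on those. The label of the cell line and the stage, before or after recovery, coincide and cannot be told apart. The questions were how the ribosomal protein genes stood in KO against WT cells without drug, and how they responded to the drug before and after recovery in each genotype.

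Ribosomal protein mRNAs are among the most abundant in growing cells, and their products are made in about equal amounts, since each ribosome holds one copy of nearly every protein. Most of these mRNAs begin with a C followed by a run of pyrimidines, the terminal oligopyrimidine (TOP) motif, through which mTOR signalling and LARP1 set their translation. Free RPL5 and RPL11 bind MDM2 and stabilise p53 when ribosome assembly is disturbed. A few members are paralogs with a narrow tissue range, such as RPL3L of muscle and RPL10L and RPL39L of the testis.

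The RefSeq promoter table (GRCh38.p14) listed a start site for 64 of the 82 genes. A C at the listed start followed by at least 4 pyrimidines was found in 46 of them (71.9%), against 5.14% of the 27305 genes with a listed start. The letters CANNTG, read on both strands since they are their own reverse complement, occurred in the 300 bases around the start of 32 of the 64 genes and of 73.1% of all genes. The windows below run from 10 bases before the start to 20 bases from it, for the genes on which the results turn, with the TOP motif in capitals where the listed start has one.
RPL31 (chr2:101002279-101002308, + strand): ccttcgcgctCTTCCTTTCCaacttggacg
RPL38 (chr17:74203668-74203697, + strand): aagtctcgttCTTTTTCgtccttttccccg
RPL27 (chr17:42998409-42998438, + strand): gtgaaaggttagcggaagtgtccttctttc
RPL21 (chr13:27251548-27251577, + strand): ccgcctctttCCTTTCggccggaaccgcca
RPL22 (chr1:6199576-6199605, - strand): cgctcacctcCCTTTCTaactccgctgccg
RPS18 (chr6:33272065-33272094, + strand): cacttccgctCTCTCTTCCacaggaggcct
RPLP0 (chr12:120201092-120201121, - strand): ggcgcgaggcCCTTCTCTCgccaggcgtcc
RPL10L (chr14:46651762-46651791, - strand): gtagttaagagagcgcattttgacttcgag
RPS27L (chr15:63157458-63157487, - strand): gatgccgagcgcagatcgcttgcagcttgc
RPL31, RPL38, RPL21, RPL22, RPS18 and RPLP0 begin with the motif at the listed start. RPL27 has a pyrimidine run only further in, and neither paralog, RPL10L nor RPS27L, has the motif at its listed start. RPL3L and RPL39L were among the 18 genes with no listed start.

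Each library held between 37878751 and 76906266 counts, of which 5.59% to 9.47% fell on the mitochondrial chromosome. ID3, the targeted gene, was lower in every KO library than in every WT library of the same cell line and treatment, between 29.3 and 67.3 CPM (counts scaled to the library total) in KO and between 47.9 and 128.8 in WT cells. The mesenchymal markers COL1A1, VIM and SPARC were at 432.8 CPM or more in every library, whereas COL1A2 reached at most 1.37 CPM and BGLAP, an osteoblast marker, 0.69 CPM, and the blood marker HBB was at 0 throughout. The summed mesenchymal markers moved with both treatment and genotype. In AID-DIvA cells they were at 3886 to 4092 CPM in untreated KO and 3215 to 3343 CPM in untreated WT libraries, and at 2924 to 2998 CPM and 2224 to 2664 CPM with treatment and recovery. In U2OS cells they were at 3760 to 3921 CPM in untreated KO and 4237 to 4669 CPM in untreated WT libraries, and at 2693 to 2825 CPM and 2790 to 3015 CPM with treatment. The summed epithelial markers EPCAM, CDH1, KRT8 and KRT18 were at 372 to 434 CPM in KO AID-DIvA cells after recovery, against 282 to 325 CPM in untreated ones. Their part in the results was not tested.

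One library stood apart in the ribosomal protein genes, though not in them alone. Replicate 1 of the untreated WT U2OS cells had 7.35% of its counts on them, against 5.58% and 5.55% in the other replicates of its group and 4.48% to 5.73% in the 21 libraries of the other groups. Of the 79 genes with a mean of at least 1 CPM in that group, 78 were highest in replicate 1, with a median ratio of 1.37 to the mean of the others. The ratio ran from 0.88 for RPL36A to 1.72 for RPS28. Its summed epithelial markers were 440.8 CPM, against 318.2 and 324.4 in the other replicates. Leaving it out also changed the calls over all genes in untreated KO against WT U2OS cells. They went from 1352 higher and 1780 lower of 20621 genes to 4304 and 4323 of 20973. Tests that used this library are also given without it.

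In the remaining groups the share of counts on the ribosomal protein genes moved within a narrow band. Untreated AID-DIvA cells had 4.57%, 4.48% and 4.92% in KO replicates 1 to 3 and 4.99%, 5.27% and 5.22% in WT. The KO libraries thus lay below all WT libraries (4.66% ± 0.23 against 5.16% ± 0.15, SD, n = 3 each). With treatment and recovery the KO share was 5.73%, 5.30% and 5.18%, above each untreated KO library, and the WT share was 5.18%, 5.31% and 5.21%, which overlapped untreated WT. The mitochondrial share was also higher after treatment and recovery, at 9.30% ± 0.25 against 7.96% ± 1.16 in KO cells. With mitochondrial counts taken out, the KO share was 5.06% ± 0.20 without and 5.96% ± 0.33 with treatment. In U2OS cells before recovery, the treated libraries lay between 5.19% and 5.30%, and their untreated counterparts between 5.30% and 7.35%. In bulk RNA, less of an mRNA per cell and fewer cells that make it cannot be told apart.

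**Figure D1:**
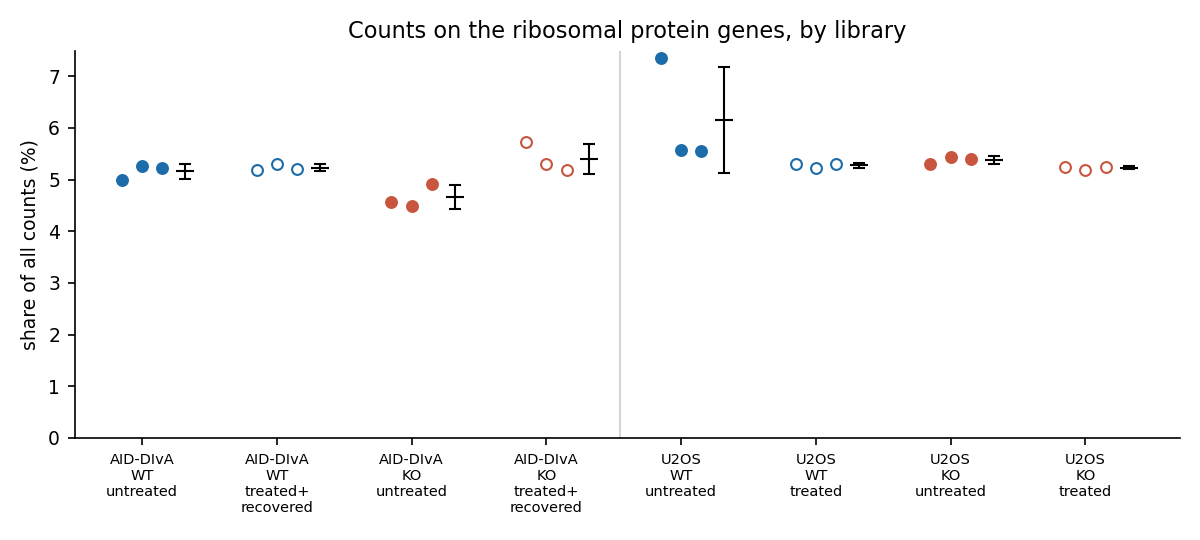
Share of all counts, in percent, on the 82 ribosomal protein genes in each of the 24 libraries by group (blue WT, red KO; filled untreated, open treated), with the mean and SD beside the points. Untreated WT U2OS replicate 1 is the highest at 7.35%, and the untreated KO AID-DIvA libraries are the lowest at 4.48% to 4.92%.

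Most of the 82 genes were strongly expressed: 74 had a mean of at least 100 CPM over the libraries. Per length, as the authors' TPM (transcript counts scaled for length and library total), RPS12 was the highest at a mean of 3873 TPM (3196 to 5074 over libraries). RPL8, RPS2, RPS27 and RPL13A followed at 2520, 2299, 2061 and 2005 TPM, with ranges that overlapped each other. RPLP0, the scaffold of the ribosomal stalk, was the seventh in the authors' TPM but the highest when the CPM was divided by the length of the Ensembl canonical transcript instead of the summed exon length, with RPS12 then second. Among the lowest stood RPL17 and RPL36A at 25.3 and 13.3 TPM, and RPL3L at 2.64 TPM. RPL17, RPL36A and RPS10 overlap readthrough genes on their own strand, so reads of these 3 genes may have been counted elsewhere and their levels are uncertain. One member passed the filter on low counts in no comparison, which left 81 genes tested in each.

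In untreated AID-DIvA cells, the ribosomal protein genes were lower in KO than in WT cells. By edgeR's quasi-likelihood test, with the adjusted p below 0.05 over all genes tested, 46 of 81 were lower (56.8%), where 18.1% of the 20441 genes tested were. None was higher, where 18.6% of all genes were. None was higher at an unadjusted p below 0.05 either, where 22.5% of all genes were, or by DESeq2, where 16.5% were. The changes were small. Their median was -0.16 on the log2 scale against 0.00 over all genes tested. Of the large subunit 27 of 49 and of the small subunit 19 of 32 were lower. The count of lower members was between 26 and 66 with each library left out in turn: it was 29 without KO replicate 1 or without WT replicate 3 and 26 without WT replicate 2. It was 9 when all 24 libraries shared one fit, near the share of all genes, since 2259 of the 23087 genes tested were lower. With single libraries left out, between 2883 and 4824 of all genes were lower.

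RPL31, RPL38 and RPL27, each a protein of the large subunit, stood below the other members. RPL31 (ENSG00000071082.6, GRCh37 chromosome 2, 101618177 to 101640494) was at 434, 425 and 456 CPM in the untreated KO and at 601, 655 and 667 CPM in the untreated WT AID-DIvA libraries. All KO libraries were well under all WT libraries, at a log2 difference of -0.57 ± 0.048 (SE, adjusted p = 1.3e-07, edgeR). RPL38 (ENSG00000172809.8, chromosome 17, 72199721 to 72206794) was at 263, 241 and 258 CPM in KO against 350, 360 and 391 CPM in WT, a difference of -0.55 ± 0.049 (adjusted p = 2.5e-07). RPL27 (ENSG00000131469.8, chromosome 17, 41150290 to 41154976) was at 424, 384 and 419 CPM in KO and at 550, 587 and 590 CPM in WT, a difference of -0.52 ± 0.047 (adjusted p = 3.5e-07). The next in size were RPS10 at -0.41 and RPL10 at -0.33, and the other members called lay nearer to 0. RPLP0 was lower by -0.21 (adjusted p = 0.0015), and RPS6, the S6 kinase substrate, by -0.16 (adjusted p = 0.0054). RPL11 was also lower, by -0.19 (adjusted p = 0.0037), while its partner in MDM2 binding, RPL5, did not pass the test (-0.06, adjusted p = 0.3). RPL31 and RPL38 overlap genes on the opposite strand, but nearly all of their counts came from their own strand.

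Of the 81 members 39 (48.1%) had all KO libraries below all WT libraries, where 21.3% of all genes tested did. RPL10, which helps to join the subunits, was at 910, 871 and 982 CPM in untreated KO and at 1116, 1140 and 1155 CPM in untreated WT AID-DIvA libraries (adjusted p = 6.6e-05, edgeR). RPS12, the highest member per length, was at 852, 852 and 927 CPM against 938, 1046 and 1015 CPM (log2 -0.21, adjusted p = 0.0039). RPS4X was at 1019, 1019 and 1015 CPM against 1121, 1150 and 1162 CPM (-0.19, adjusted p = 9.8e-04). RPSA and RPS6 had the same order of groups in the small subunit. RPSA, which is also known as a laminin receptor, was at 1254, 1247 and 1284 CPM against 1369, 1400 and 1408 CPM, and RPS6 was at 782, 812 and 806 CPM against 862, 902 and 879 CPM. RPLP2 of the stalk was called although its groups overlapped, at 322, 319 and 356 CPM in KO against 346, 381 and 370 CPM in WT.

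**Figure D2:**
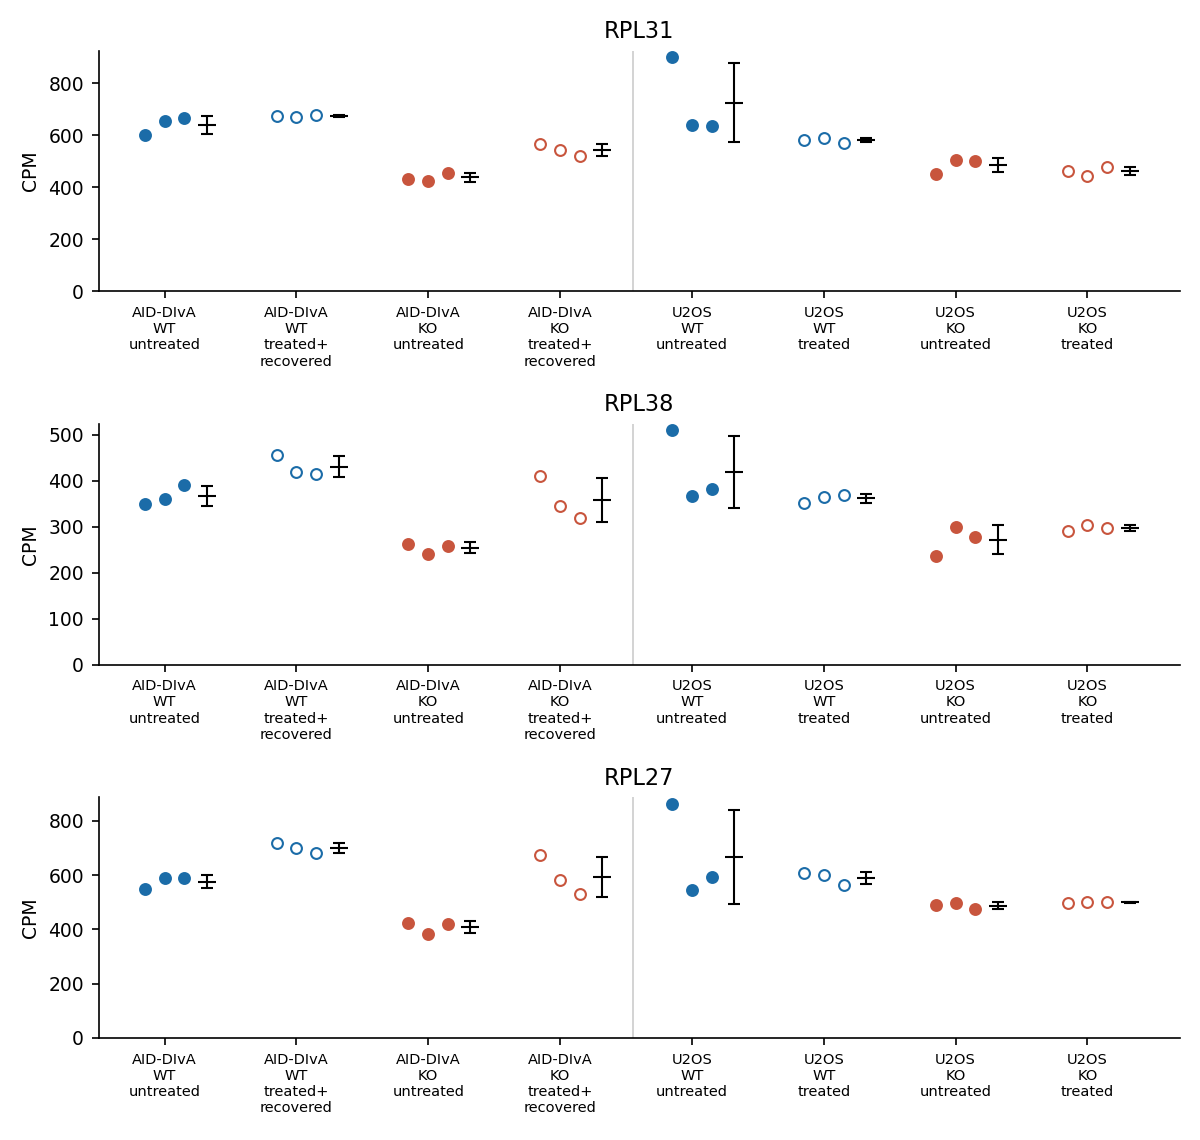
CPM of RPL31, RPL38 and RPL27 in each library of the 8 groups (blue WT, red KO; filled untreated, open treated), with the mean and SD beside the points. Under both cell line labels every untreated KO library is below every untreated WT library for the 3 genes.

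In untreated U2OS cells only RPL38 and RPL31 passed the same test, 2 of 81 members (2.47%) where 8.63% of the 20621 genes tested were lower. No member was higher, where 6.56% of all genes were. None was higher at an unadjusted p below 0.05 either, where 13.5% of all genes were, or by DESeq2, where 8.96% were. RPL38 was at 237, 299 and 278 CPM in KO against 509, 367 and 381 CPM in WT libraries (log2 -0.63 ± 0.15, adjusted p = 0.027, edgeR). RPL31 was at 453, 504 and 501 CPM in KO and at 902, 641 and 636 CPM in WT libraries (-0.58 ± 0.14, adjusted p = 0.033). RPL27 was at 491, 498 and 473 CPM in KO and at 862, 544 and 591 CPM in WT libraries, and did not pass (-0.45 ± 0.17, adjusted p = 0.11). For all 3 genes the KO libraries were below the WT libraries, and WT replicate 1 was the highest. With the replicate number as a block, no member passed, where 978 of the 20621 genes tested were higher and 1265 lower.

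Without WT replicate 1 the picture of the U2OS comparison changed. The median of the members moved from -0.19 to -0.02, and 12 members were then higher and 14 lower in KO cells. Of the 20973 genes tested in that fit, 4304 were higher and 4323 lower. RPL31 was lower by -0.39 (adjusted p = 3.2e-11) and RPL27 by -0.22 (adjusted p = 3.1e-06), and RPL38 was at -0.46 but missed the threshold (adjusted p = 0.054). Without any one of the KO replicates, no member passed, where 544 to 548 of all genes were higher and 722 to 747 lower. The difference between the cell line labels was not tested.

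Before recovery, part of the ribosomal protein genes were lower in treated cells. In KO U2OS cells, 38 of 81 members were lower in treated than in untreated cells (46.9%, against 34.0% of the 21176 genes tested) and 5 were higher (6.17%, against 35.8%). The median was -0.09, against 0.00 over all genes. This balance depended on the scaling, since with library totals in place of TMM factors 24 members were lower and 18 higher and the median was -0.01, beside a shift of the median of all genes to 0.08. Of the 21176 genes, 6132 were lower and 8547 higher with library totals. With all 24 libraries in one fit, 22 members were lower and 2 higher. The lower count was then near the share of all genes, since 6518 of the 23087 genes tested were lower and 7156 higher. In WT U2OS cells 27 members were lower (33.3%, against 22.9% of 21797 genes) and 1 was higher (1.23%, against 26.0%), with a median of -0.32 against 0.01. This median rested on untreated WT replicate 1, without which it was -0.13, with 52 members lower and 6 higher. Of the 22423 genes tested without that library, 7294 were lower and 7594 higher. Without any one of the treated WT replicates, 8 or 9 members were lower, where 3565 to 3615 of all genes were.

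RPL30, RPL21, RPL41 and RPL22 were among the members with the largest falls. RPL30, a member that binds its own transcript in yeast, was at 147, 161 and 152 CPM in treated and at 218, 229 and 227 CPM in untreated KO libraries (log2 -0.54 ± 0.044, adjusted p = 2.0e-10, edgeR). Its sense-strand count was 1.68 times the count from either strand, and it overlaps genes on the opposite strand. RPL21 (ENSG00000122026.6, chromosome 13, 27825446 to 27830828) was at 222, 255 and 237 CPM against 305, 338 and 342 CPM (-0.46 ± 0.052, adjusted p = 4.7e-08). RPL41, the smallest ribosomal protein, was at 306, 309 and 329 CPM against 407, 440 and 428 CPM (-0.43 ± 0.045, adjusted p = 1.3e-08). No treated KO library of these 3 genes reached an untreated one, which was a condition for naming them.

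Other members called lower in treated KO U2OS cells included some of the most and least abundant. RPL13A was at 1301, 1280 and 1339 CPM in treated and at 1637, 1689 and 1660 CPM in untreated KO libraries (log2 -0.34, adjusted p = 2.2e-07, edgeR). RPL17 was at 15.9, 15.2 and 16.3 CPM against 20.1, 18.0 and 18.4 CPM (-0.24, adjusted p = 0.0012), and RPL36A was at 11.0, 13.1 and 11.1 CPM against 13.6, 13.8 and 15.2 CPM (-0.27, adjusted p = 0.0023). The groups were apart in each of these, although the counts of RPL17 and RPL36A may be split with their readthrough genes. RPL3 was at 1392, 1319 and 1377 CPM against 1440, 1500 and 1478 CPM.

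In WT U2OS cells RPL21 was at 230, 227 and 239 CPM with and at 417, 335 and 344 CPM without treatment (log2 -0.65 ± 0.10, adjusted p = 0.0012, edgeR). RPL22 (ENSG00000116251.5, chromosome 1, 6241329 to 6269449), without which mice remain viable, was at 142, 151 and 154 CPM against 269, 204 and 217 CPM (-0.62 ± 0.11, adjusted p = 0.0029). Genes without overlap were chosen here too. Without untreated replicate 1 the changes were -0.54 for RPL21 and -0.49 for RPL22, each still called. In KO cells RPL22 fell by 0.37 on the log2 scale.

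RPL3L, the paralog of RPL3 that replaces it in muscle, rose far more than any other member before recovery. Its sense-strand counts were 307, 257 and 330 in treated KO and 457, 366 and 583 in treated WT U2OS libraries. They lay between 2 and 8 in each of the other 18 libraries, including the AID-DIvA libraries after treatment and recovery. Counts on the opposite strand, where no other gene is annotated in the files, were 24 to 40 in the 6 treated U2OS libraries and 15 to 54 in the others. On counts from either strand the log2 change in KO cells was 3.26 ± 0.14 (adjusted p = 2.2e-15, edgeR). In WT cells it was 3.58 ± 0.25 (adjusted p = 2.2e-05). Without untreated WT replicate 1 it was 3.95. On sense-strand counts the fitted changes were 5.15 ± 0.18 in KO and 6.25 ± 0.25 in WT cells. They rest on 3 to 8 counts in each untreated U2OS library, so their size is uncertain, and RPL3L passed the filter on sense-strand counts only through the treated libraries. RPL3 itself, at a far higher level, changed by -0.11 (adjusted p = 0.034) in KO and -0.23 (adjusted p = 0.11) in WT cells, or -0.12 (adjusted p = 0.0015) in WT cells without untreated replicate 1. Even after its rise RPL3L stayed at most at 10.7 TPM. After recovery RPL3L was called higher on counts from either strand (0.71, adjusted p = 0.028 in KO and 0.60, adjusted p = 0.03 in WT). These calls rested on opposite-strand counts, and on sense-strand counts RPL3L was too low to be tested there. It passed the filter in those comparisons only through its opposite-strand counts.

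The other rises before recovery were small. RPL10L (ENSG00000165496.3, chromosome 14, 47120222 to 47121028), a copy of RPL10 with a single exon that is active in male germ cells, was at 34.0, 31.0 and 32.1 CPM in treated and at 23.5, 24.2 and 24.4 CPM in untreated KO libraries (log2 0.44 ± 0.054, adjusted p = 1.8e-07, edgeR). RPL10 fell by 0.40 in the same comparison, but the copies are close in sequence and reads may have been assigned to either. RPS10 was at 18.0, 15.1 and 16.7 CPM with and at 14.1, 14.6 and 14.5 CPM without treatment (0.21 ± 0.067, adjusted p = 0.0078). It did not pass with all 24 libraries in one edgeR fit (0.20, adjusted p = 0.13), and its reads may be split with its readthrough gene. RPL11 and RPL23 made up the 5 members called, at 0.20 and 0.18. In WT cells neither RPL10L (0.28, adjusted p = 0.062) nor RPL11 (-0.05, adjusted p = 0.79) passed. Without untreated WT replicate 1, both were called, at 0.39 and 0.12. The difference between the genotypes in this response passed the test for no member, where 1.10% of the 22647 genes tested were called higher and 1.06% lower. At an unadjusted p below 0.05 there were 5 members, where 13.2% of all genes were. DESeq2 called none, where it called 2.03% of all genes higher and 2.02% lower. Without untreated WT replicate 1 the members' median moved from 0.21 to 0.03, and RPS27L passed (0.22, adjusted p = 0.017). Of the 23164 genes tested in that fit, 1034 were higher and 1057 lower.

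**Figure D3:**
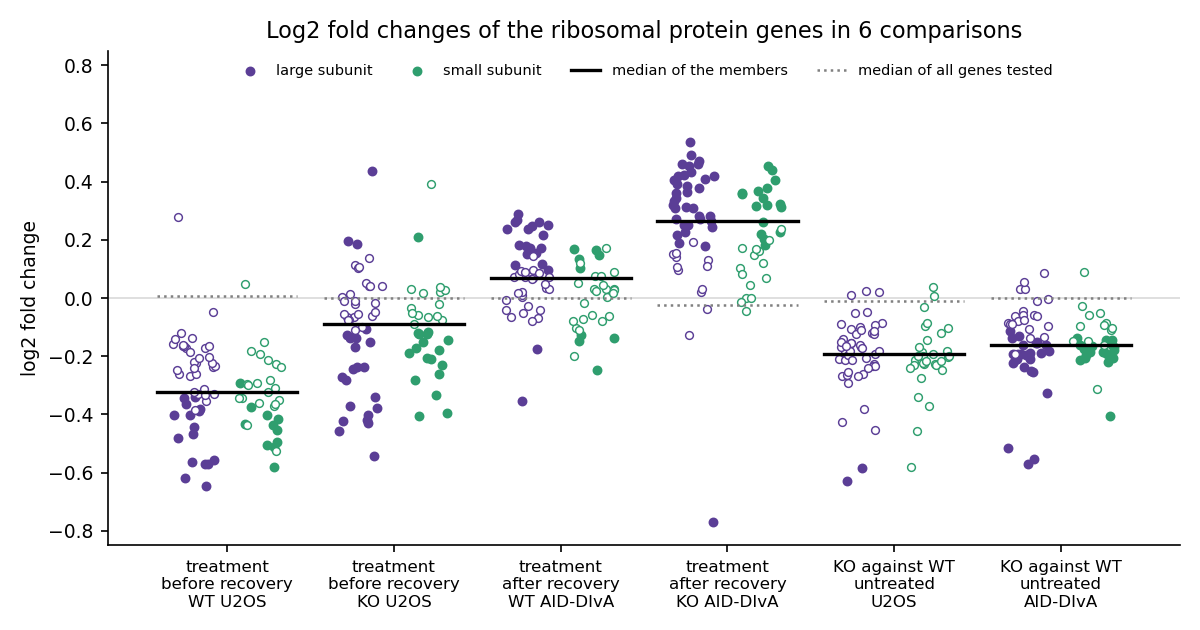
Log2 fold changes of 80 tested members in the 4 treatment and 2 genotype comparisons (filled, adjusted p below 0.05; open, not called), with RPL3L left out since it lies off the scale at 3.26 and 3.58. Lines give the medians of the members and of all genes tested, and the members are mostly above 0 only after recovery.

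After recovery the ribosomal protein genes were higher in treated than in untreated KO AID-DIvA cells. There 53 of 81 members were higher (65.4%, against 20.2% of the 20362 genes tested) and 1, RPL39L, was lower (1.23%, against 19.9%). The median was 0.26 on the log2 scale, against -0.02 over all genes tested. Of the large subunit 36 of 49 and of the small subunit 17 of 32 were higher. The count was 35 without untreated KO replicate 1 and 43 with all 24 libraries in one fit. Over all genes, 3192 of 20651 and 4328 of 23087 were higher in those fits. The untreated KO libraries are those that also stood below WT, so these comparisons share them.

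RPL27 was at 672, 580 and 529 CPM in treated and at 424, 384 and 419 CPM in untreated KO libraries (log2 0.54 ± 0.077, adjusted p = 5.0e-04, edgeR). RPL38 was at 410, 345 and 319 CPM against 263, 241 and 258 CPM (0.49 ± 0.079, adjusted p = 9.6e-04). RPL18 was at 698, 605 and 614 CPM against 434, 425 and 522 CPM (0.47 ± 0.087, adjusted p = 0.0021). The 3 genes were named among those whose treated libraries were all above the untreated ones, and replicate 1 was the highest treated library. RPL11 rose by 0.46 (adjusted p = 0.0024) and RPL5 by 0.39 (adjusted p = 2.8e-04). RPS27L, a p53 target and paralog of RPS27, rose by 0.40 (adjusted p = 3.5e-04), and RPS27 by 0.31 (adjusted p = 0.0074). RPLP0, RPSA and RPS2 did not pass, at -0.04, -0.02 and -0.04.

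In the same KO comparison RPL11 was at 757, 603 and 574 CPM in treated and at 454, 458 and 491 CPM in untreated libraries. RPS27L was at 169, 171 and 166 CPM against 131, 127 and 124 CPM, and RPS27 at 705, 583 and 566 CPM against 498, 481 and 512 CPM. For RPL11 and RPS27 replicate 1 was again the highest. RPL10A was at 640, 574 and 559 CPM against 493, 480 and 515 CPM (log2 0.25, adjusted p = 0.0078, edgeR). RPL8 was at 2082, 1710 and 1743 CPM against 1435, 1408 and 1697 CPM (0.28, adjusted p = 0.029), so that its lowest treated and highest untreated library lay close together. RPL39 was at 135, 119 and 107 CPM against 102, 95.9 and 100 CPM.

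In WT AID-DIvA cells the response after recovery was mixed. Here 24 of 81 members were higher (29.6%), close to the 23.9% of the 20289 genes tested, and 6 were lower (7.41%, against 23.0%), with a median of 0.07 against 0.00. With all 24 libraries in one fit 7 were higher and 1 lower, and without treated replicate 1 there were 11 lower. Of the 23087 genes in the first fit 3912 were higher and 3664 lower, and of 20746 in the second 5370 were lower. RPL27 led again, at 718, 700 and 681 CPM with and 550, 587 and 590 CPM without treatment (log2 0.29 ± 0.040, adjusted p = 5.8e-05, edgeR). RPL34 was at 335, 292 and 297 CPM against 245, 263 and 264 CPM (0.27 ± 0.052, adjusted p = 8.4e-04). RPL5 was at 1073, 971 and 981 CPM against 818, 866 and 857 CPM (0.26 ± 0.044, adjusted p = 3.0e-04). These 3 were likewise named among members without overlap.

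The 6 lower members in WT cells were RPL39L, RPS2, RPLP0, RPS20, RPS4X and RPS29, 4 of them of the small subunit. RPS2 was at 1375, 1481 and 1401 CPM with and at 1611, 1720 and 1753 CPM without treatment (log2 -0.25 ± 0.043, adjusted p = 3.9e-04, edgeR). RPLP0 was at 2088, 2156 and 2124 CPM against 2376, 2416 and 2441 CPM (-0.17 ± 0.036, adjusted p = 0.0013). With all 24 libraries in one edgeR fit, neither RPS2 nor RPLP0 passed (adjusted p = 0.089 and 0.096). RPS4X, the copy on chromosome X, fell by 0.14 (adjusted p = 0.011). All 24 members that were higher in WT cells, RPL3L with its opposite-strand counts among them, were also higher in KO cells, which share no library with them. How often calls coincided over all genes was not counted. Another 29 members passed in KO but not in WT cells, which is no test of a difference. The test of that difference, given below, called 2 members.

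RPL39L, a paralog of RPL39 that is most abundant in the testis and in some tumours, went the other way after recovery in both genotypes. It was at 19.6, 19.4 and 17.7 CPM in treated and at 31.3, 30.2 and 35.1 CPM in untreated KO libraries (log2 -0.77 ± 0.082, adjusted p = 7.5e-05, edgeR). In WT cells it was at 25.6, 22.1 and 21.9 CPM against 28.7, 30.8 and 30.0 CPM (-0.36 ± 0.065, adjusted p = 5.5e-04). RPL39 rose by 0.27 in KO cells (adjusted p = 0.017) and did not pass in WT cells (0.09, adjusted p = 0.26). The fall of RPL39L was 0.41 larger in KO than in WT cells, a difference that did not pass (SE 0.11, adjusted p = 0.09). Before recovery RPL39L was at -0.11 in KO (adjusted p = 0.058) and at -0.40 in WT cells (adjusted p = 0.038), or -0.23 (adjusted p = 6.1e-05) without untreated WT replicate 1.

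**Figure D4:**
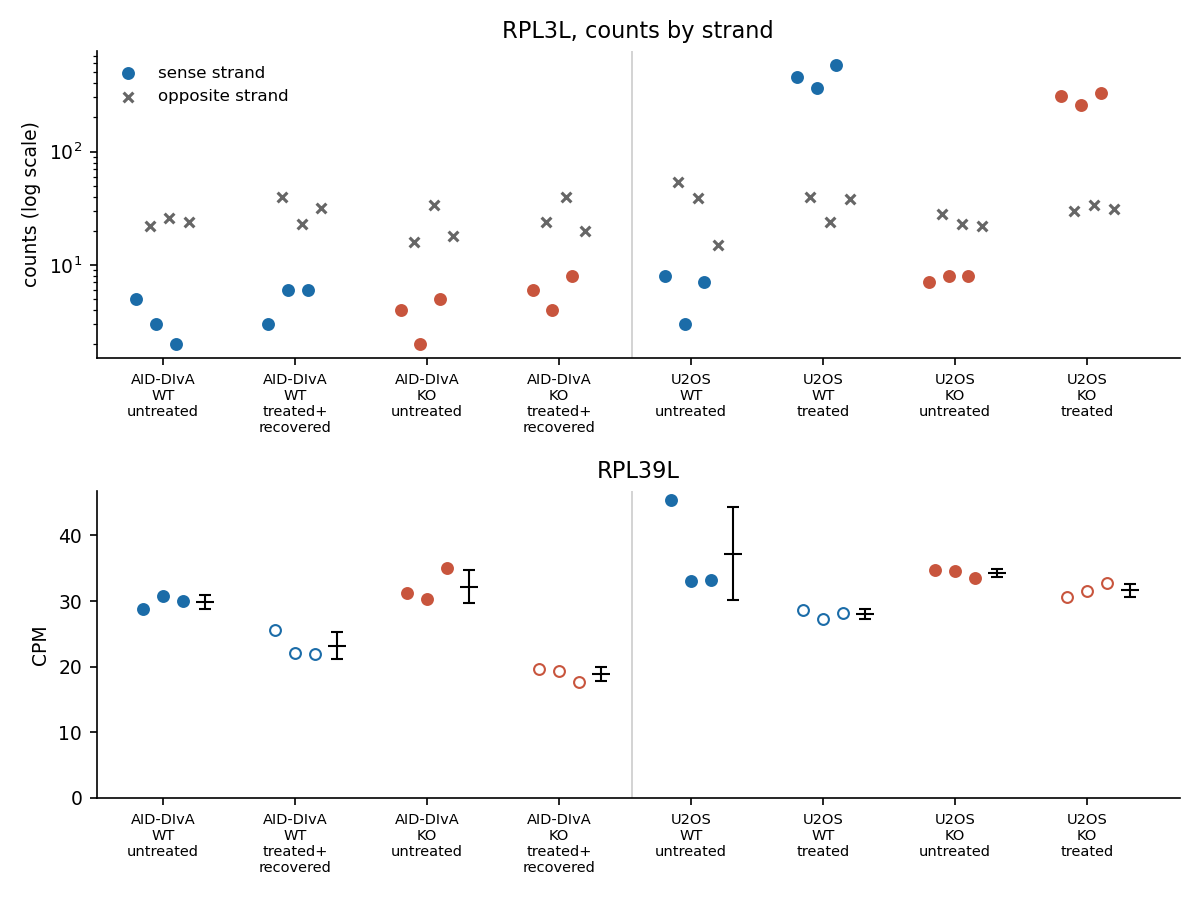
Counts of RPL3L by strand on a log axis (dots, sense; crosses, opposite strand) and CPM of RPL39L with mean and SD, in each library by group (blue WT, red KO). Sense counts of RPL3L reach 257 to 583 in the treated U2OS libraries alone, and RPL39L is lowest in the treated and recovered KO AID-DIvA libraries, at 17.7 to 19.6 CPM.

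The test of the difference between the genotypes in the response after recovery called RPS18 and RPL19, 2 of 81 members (2.47%, against 0.762% of the 21265 genes tested). None was lower, where 0.451% of all genes were. RPS18 was at 1212, 1117 and 1106 CPM in treated and 853, 799 and 883 CPM in untreated KO libraries, and at 1053, 1010 and 1011 CPM against 916, 982 and 983 CPM in WT. Both genotypes rose, KO by 0.34 ± 0.069 more on the log2 scale (adjusted p = 0.021, edgeR). RPL19, chosen since it is the other of the 2, was at 1300, 1104 and 1081 CPM against 831, 856 and 892 CPM in KO and at 1052, 1101 and 1064 CPM against 975, 1043 and 1006 CPM in WT, a difference of 0.34 ± 0.079 (adjusted p = 0.043). The estimate was positive for 78 of the 81 members, with a median of 0.21 against -0.02 over all genes tested. The share of positive estimates over all genes was not counted. An unadjusted p below 0.05 was found for 52 members, where 11.8% of all genes had one. This contrast holds the untreated KO libraries that stood below WT. The estimate before recovery in U2OS cells was also positive for 78 members, but its median there was 0.03 without untreated WT replicate 1. The calls themselves were not stable. They numbered 0 with the replicate block or with all 24 libraries in one fit, 7 higher and 1 lower with DESeq2, 18 without a filter on low counts, and between 0 and 8 with each library left out in turn. They numbered 0 without KO treated replicate 2, KO untreated replicate 1 or 2, WT treated replicate 2 or WT untreated replicate 2 or 3, and 6 and 8 without KO treated or untreated replicate 3. They numbered 1 without WT treated replicate 1 or 3 or WT untreated replicate 1. Over all genes, 96 were higher with the replicate block and 166 with all 24 libraries in one fit. DESeq2 called 302 higher and 164 lower of 21265, and 422 of 40758 were higher without a filter. With each library left out in turn, between 76 and 192 of all genes were higher.

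The responses after and before recovery were then compared within each genotype, over 12 libraries that differ also in the label of the cell line. In KO cells 65 of 81 members had a higher response after than before recovery (80.2%, against 24.8% of the 21947 genes tested) and 3 a lower one (3.70%, against 27.7%). With library totals in place of TMM factors 48 were higher, beside a shift of the median of all genes from -0.04 to -0.14. Of the 21947 genes, 4555 were higher with library totals. RPL30 led by p, with a difference of 0.67 ± 0.079 (adjusted p = 1.0e-06, edgeR), from -0.54 before to 0.13 after recovery. The 3 with a lower response were paralogs: RPL3L, RPL39L at -0.67 (adjusted p = 8.5e-06) and RPL10L at -0.30 (adjusted p = 0.007). RPL3L was at -2.56 ± 0.26 (adjusted p = 1.8e-07) on counts from either strand and at -4.14 on sense-strand counts. In both genotypes it passed the sense-strand filter only through the treated U2OS libraries, with 2 to 8 sense counts in the others. Its either-strand counts in those others came mostly from the opposite strand, so the sizes are uncertain. In WT cells 27 members had a higher response after recovery (33.3%, against 20.5% of 22238 genes) and 1, RPL3L at -2.98 ± 0.34 (adjusted p = 1.1e-05), a lower one (1.23%, against 21.7%). On sense-strand counts this difference was -5.51, and without untreated WT U2OS replicate 1 it was -3.35. RPL21 led there with a difference of 0.64 ± 0.12 (adjusted p = 8.8e-04), or 0.53 without untreated WT U2OS replicate 1. The count of higher responses was 49, beside 3 lower, without untreated WT U2OS replicate 1, and 57 and 51 without replicates 2 and 3. Over all genes, 5918 were higher and 5911 lower without replicate 1. Without replicates 2 and 3, 4837 and 4787 were higher.

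**Figure D5:**
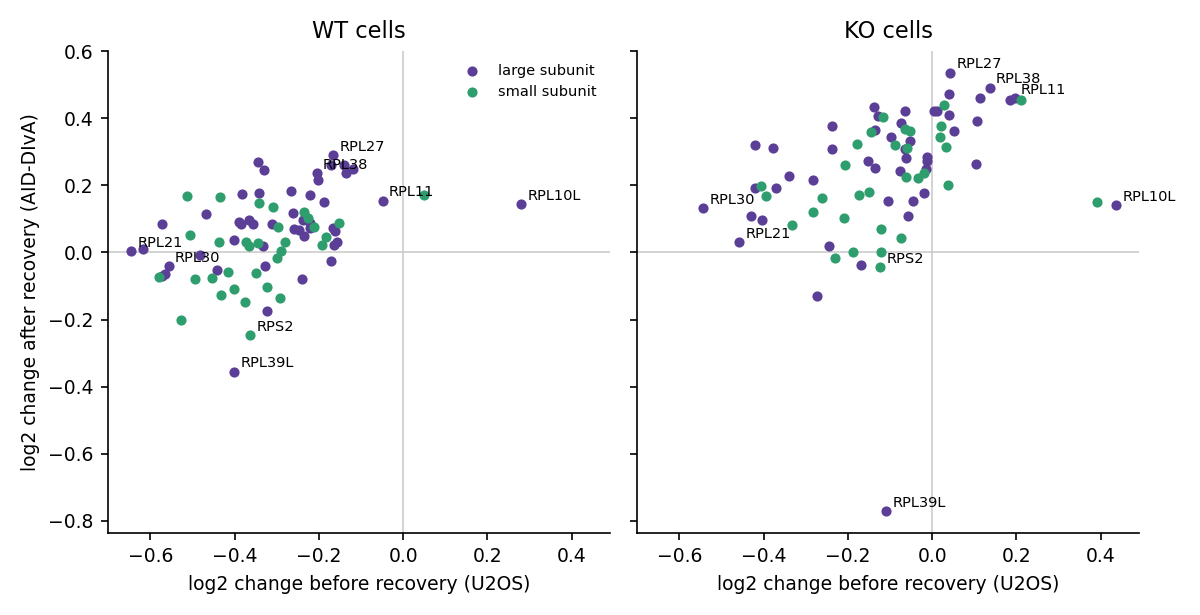
Log2 change on treatment before recovery (U2OS, horizontal) and after recovery (AID-DIvA, vertical) for 80 tested members in WT and KO cells, with RPL3L left out since it lies off the scale. Most members are left of 0 before recovery, and in KO cells most are above 0 after it, with RPL39L the lowest at -0.77.

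The TOP motif was set beside the changes. After recovery in KO cells, 31 of the 46 genes with the motif at a listed start and 12 of the 18 with listed starts that lack it were higher, with medians of 0.26 and 0.28. In untreated KO against WT AID-DIvA cells, 28 of 46 and 10 of 18 were lower, with medians of -0.16 and -0.15. RPLP1 and RPS15 were called in none of the 6 treatment and genotype comparisons. Without untreated WT U2OS replicate 1, RPLP1 was higher in untreated KO U2OS cells (0.09, adjusted p = 0.041) and RPS15 lower in treated WT U2OS cells (-0.08, adjusted p = 0.035). RPLP2, the partner of RPLP1 in the stalk, was lower in untreated KO AID-DIvA cells (-0.16, adjusted p = 0.025) and rose after recovery there (0.24, adjusted p = 0.015).

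Genes that make or regulate ribosomes were counted beside the members. Of all genes tested, 20.2% in KO and 23.9% in WT cells were higher after recovery, and 34.0% and 22.9% were lower before it. FAU, GNB2L1 and other ribosomal proteins and paralogs outside the name rule, 9 in all, had 6 higher after recovery in KO (66.7%) and 7 in WT cells (77.8%), and 5 lower in untreated KO AID-DIvA cells (55.6%, against 18.1% of all genes). RPL22L1, the paralog of RPL22, rose after recovery by 0.88 in KO and 0.84 in WT cells (adjusted p = 6.9e-05 and 8.9e-08). Of 66 ribosome biogenesis factors, 46 were higher after recovery in KO (69.7%) and 51 in WT cells (77.3%), with medians of 0.35 and 0.28. Before recovery 27 were higher (40.9%) and 24 lower (36.4%) in KO cells, near the 35.8% and 34.0% of all genes. Of 27 translation factors and other TOP mRNAs tested, 14 (51.9%) and 17 (63.0%) were higher after recovery in KO and WT cells, and 15 (55.6%) and 13 (48.1%) were lower before it. Of 76 mitochondrial ribosomal protein genes tested, 39 (51.3%) and 48 (63.2%) were higher after recovery, and 57 of 76 in KO (75.0%) and 38 of 75 in WT cells (50.7%) were lower before it. Without untreated WT U2OS replicate 1, the lower counts in WT cells were 16 for the translation factors and 51 for the mitochondrial ribosomal proteins. The count over all genes rose as well, to 7294 of the 22423 genes tested in that fit.

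Among 15 genes of RNA polymerase I transcription, UBTF, which opens the ribosomal DNA repeats for transcription, fell before recovery by 1.23 in KO and 1.34 in WT cells on the log2 scale, or by 1.26 in WT cells without untreated replicate 1. The list itself was mixed, with 6 higher (40.0%) and 7 lower (46.7%) before recovery in KO cells, where 35.8% and 34.0% of all genes were. After recovery 5 (33.3%) and 6 (40.0%) were higher in KO and WT cells and 2 (13.3%) lower in each, where 19.9% and 23.0% of all genes were lower. Among 15 regulators of ribosomal protein expression, 5 were higher (33.3%) and 2 lower (13.3%) after recovery in KO cells and 9 (60.0%) and 3 in WT cells. Before recovery 6 were higher (40.0%) and 8 lower (53.3%) in KO cells. In WT cells 4 were higher and 4 lower (26.7% each), where 26.0% and 22.9% of all genes were. Without untreated WT replicate 1 there were 6 higher and 8 lower, where 7594 and 7294 of 22423 genes were. MYC, which activates ribosomal protein and biogenesis genes, rose after recovery by 1.65 in KO and 1.43 in WT cells. Before recovery it rose by 0.44 in KO and 0.43 in WT cells, or by 0.49 in WT cells without untreated replicate 1. Other regulators of the list went the other way after recovery. RPS6KB1 changed by -0.42 in KO and -0.34 in WT cells, and EIF4EBP2 by -0.31 and -0.23. The part of these regulators in the results was not tested.

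The 14 host RNAs of small nucleolar RNAs, many of which also start with a TOP motif, had 9 lower (64.3%) in untreated KO AID-DIvA cells, where 18.1% of all genes were. GAS5 among them was lower by -0.38 there and by -0.41 in untreated KO U2OS cells (adjusted p = 0.041), or by -0.28 without untreated WT replicate 1. Before recovery 9 of the 14 were lower in KO (64.3%) and 6 in WT cells (42.9%), or 9 in WT cells without that library. Over all genes 34.0% and 22.9% were lower, and 7294 of 22423 in WT cells without that library. After recovery 4 were higher in KO cells (28.6%, against 20.2% of all genes) and 2 in WT cells (14.3%, against 23.9%).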

How the data were processed

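Total RNA of 24 libraries was prepared with a stranded kit and sequenced in pairs. Per the labels and the study's methods, the authors aligned reads to hg19/GRCh37 with STAR and counted them per gene with featureCounts. They deposited raw counts per gene, from either strand and by strand, for 57820 genes, and TPM values computed by the authors per library. The counts were used for tests and the deposited TPM only to order genes per length.

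Counts were fitted with edgeR 4.0.16 (TMM factors, filterByExpr, robust quasi-likelihood F test, R 4.3.3), and p-values were adjusted by Benjamini-Hochberg over all genes tested, with a threshold of 0.05. Treatment and genotype comparisons used the 6 libraries concerned, interactions and differences of responses 12. CPM values use TMM factors over all 24 libraries. Standard errors were derived from the F statistic. The script was tested on simulated data. Alternatives were DESeq2 1.42.0, other scalings and filters, one fit of all libraries, sense-strand counts, the replicate number as a block and leaving out each library. The pairing of replicate numbers was checked by correlating the deviations of same-numbered libraries from their group means: r lay between -0.38 and 0.26 over 6 pairs of groups, and in none were all 3 above 0.1, so the numbers were not taken to pair libraries. No pair of libraries in a group agreed within counting noise. P-values measure the spread between these libraries.

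Members named with values were the 3 with the largest rise and fall in each treatment comparison (adjusted p below 0.05, at least 1 CPM, no overlap between groups), the member with the smallest p in each direction elsewhere, the 5 highest and lowest per length, and a list of well-known members and paralogs. They are given in the libraries of the comparisons described, not in all 24 each. Values of a few members that the rule names are not reported here, but they stay in the counts. The members and gene lists were chosen with earlier results of these data known. Start sites come from RefSeq, and coordinates of genes from the files (GRCh37).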

Additional observations from a re-analysis of the deposited data

Results flagged for a closer look

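The response to treatment differed between genotypes or stages by a test of the difference itself (edgeR) for several members. After recovery in AID-DIvA cells, 2 members (2.47%, against 0.762% of all genes tested) had a higher response in KO than in WT cells, with RPS18 the first by p at 0.34 on the log2 scale. None passed with the replicate block (RPS18 adjusted p = 0.058) or with all 24 libraries in one fit (adjusted p = 0.24). Between the stages, 65 members had a higher and 3 a lower response after than before recovery in KO cells (24.8% and 27.7% of all genes), led by RPL30 at 0.67 and RPL3L at -2.56. In WT cells 27 had a higher and 1 a lower response (20.5% and 21.7% of all genes), led by RPL21 at 0.64 and RPL3L at -2.98. The RPL3L values are on counts from either strand, which came mostly from the opposite strand outside the treated U2OS libraries. The stages also differ in the label of the cell line, and the untreated WT U2OS group holds the library with 7.35% of its counts on the members. Their parts cannot be told apart or were not tested.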

How the results depend on the processing

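No member but RPL3L, before recovery and in the differences of responses, passed a log2 threshold of 1, which left counts of 0 or 1 elsewhere. With all 24 libraries in one fit, members higher and lower were 7 and 1 after recovery in WT, 2 and 22 before recovery in KO and 2 and 58 in WT, 9 and 24 were lower in untreated KO against WT AID-DIvA and U2OS, 0 passed the interaction after recovery, and 52 had a higher response after recovery in WT. Of the 23087 genes in that fit, 2259 and 3613 were lower in untreated KO against WT AID-DIvA and U2OS. After recovery in WT 3912 were higher and 3664 lower. Before recovery 7156 were higher and 6518 lower in KO, and 7047 and 6726 in WT. A higher response after recovery in WT was called for 5222. Before recovery in KO, library totals gave 18 higher and 24 lower, and the replicate block or at least 10 counts in every library gave 9 higher. In WT library totals, that filter or sense-strand counts gave 2 higher. The block gave 0 lower in untreated U2OS and 0 in the interaction after recovery, and moved no other count by over 1.5 times. Over all genes it left 1265 of 20621 lower in untreated U2OS and 96 of 21265 higher in that interaction. That interaction counted 7 higher and 1 lower with DESeq2, 18 without a filter, and 1 with DESeq2's size factors or library totals. Over all genes, DESeq2 called 302 higher and 164 lower of 21265, and 422 of 40758 were higher without a filter. Without a filter the interaction before recovery counted 2 and the WT response difference 52, where 434 of 41825 and 4432 of 41464 genes were higher. Leaving out single libraries gave 35 to 58 higher and 1 lower (after recovery, KO), 16 to 36 and 4 to 11 (WT), 5 to 7 and 31 to 44 (before recovery, KO), 1 to 6 and 8 to 52 (WT), 0 to 1 and 26 to 66 (untreated AID-DIvA), 0 to 12 and 0 to 14 (untreated U2OS), 0 to 8 and 0 (interaction after recovery), 0 to 1 and 0 (before), 55 to 68 and 3 (response difference, KO) and 20 to 57 and 1 to 3 (WT). Over all genes the same fits gave 3131 to 4372 higher and 2641 to 4213 lower after recovery in KO. In WT they gave 4124 to 5520 and 3856 to 5370. Before recovery they gave 7262 to 7664 and 6817 to 7193 in KO and 4492 to 7594 and 3565 to 7294 in WT. In untreated cells they gave 2966 to 4486 and 2883 to 4824 (AID-DIvA) and 544 to 4304 and 722 to 4323 (U2OS). Outside the mitochondrial chromosome the members' share was 5.56% and 5.71% in untreated and treated WT and 5.06% and 5.96% in KO AID-DIvA, 5.62% in treated WT and 5.74% and 5.60% in untreated and treated KO U2OS cells. On sense-strand counts it was 5.22% and 5.17% in treated WT and KO U2OS cells. Of the values of single named members, 392 kept their call and 16 their direction but not the threshold. These were mostly RPL38 in untreated U2OS cells and RPS18 in the interaction, with RPS2, RPLP0 and RPS10 in the fit of all 24 libraries. The cause was not tested. Ranks per length moved with the transcript length for RPL8, RPS27 and RPL13A, which were 7, 6 and 15 on the canonical length.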
